A study of Mus musculus with 2 samples.

Results

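Small leucine-rich matrix proteins were followed in the messenger RNA of mesenchymal stem cells with and without Dicer, the enzyme that cuts microRNA precursors into mature microRNAs. The group holds 10 genes chosen by symbol, Dcn, Lum, Bgn, Fmod, Omd, Ogn, Prelp, Aspn, Islr and Podn, and all 10 were found among the 23227 symbols of the deposited comparison. Dicer -/- cells (KO) were compared with Dicer f/f cells (WT), in which the floxed Dicer gene is still whole. Both are immortalised monoclonal lines of adult mouse mesenchymal stem cells, called fibroblasts in another label, and were grown in Alpha-MEM with fetal bovine serum and lysed before confluence. The design asked how mature messenger RNA differed between the genotypes. With 1 monoclonal line and 1 labelled sample per genotype, loss of Dicer and differences between clones cannot be told apart.

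These proteins are secreted into the extracellular matrix, where a curved domain of leucine-rich repeats binds collagen fibrils and growth factors. Many carry sugar chains: biglycan (Bgn) and decorin (Dcn) carry chondroitin or dermatan sulfate, while lumican (Lum), fibromodulin (Fmod) and osteomodulin (Omd) carry keratan sulfate. They are typical products of fibroblasts, tendon, cartilage and bone, and they set the width and spacing of collagen fibrils. Islr, an immunoglobulin-like protein with leucine-rich repeats that is also known as Meflin, is a marker of undifferentiated mesenchymal stromal cells.

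The deposited mean of each genotype resolved into 2 libraries, named here the deeper and the shallower one after their totals. The KO libraries held 15718369 and 14969532 reads in genes and the WT libraries 15369250 and 14135422. Values are normalised reads, that is reads divided by the size factor of the library, given for the deeper and then the shallower library. The labels do not say how the 2 libraries of a genotype relate, so the spread between them may be technical. The targeted gene Dicer1 had 573 and 557 normalised reads in KO cells, against 804 and 943 in WT cells; a value per gene does not show the deleted part alone. Of 10 fibroblast and mesenchymal markers, 9 were above the minimum level and Thy1 had 0 reads in every library. The summed level of 5 endothelial markers was 17.5 and 20.9 in KO cells and 9.64 and 11.2 in WT cells. The 6 haematopoietic markers summed to 43.2 and 42.8 in KO cells and 27.0 and 44.8 in WT cells, with Cd68 above the minimum. The 5 epithelial markers summed to 33.1 and 53.7 in KO cells and 16.4 and 71.8 in WT cells, with Krt8 above the minimum. The 4 tendon markers summed to 301 and 236 in KO cells and 230 and 328 in WT cells. Some markers of other cell types differed strongly. Msln, 1 of 4 mesothelial markers, had 164 and 408 normalised reads in KO cells and 0.964 and 0 in WT cells, and the other 3 had at most 2 reads in any library. Of both keratocyte markers, Aldh3a1 had 1001 and 670 normalised reads in KO cells and 121 and 29.1 in WT cells, and Kera had 0. The 5 chondrocyte markers summed to 1802 and 908 in KO cells and 1643 and 752 in WT cells. Sox9 was higher, with 1428 and 806 in KO cells and 379 and 99.8 in WT cells. Col2a1, with 355 and 97.5 in KO cells and 1195 and 621 in WT cells, was lower. Comp was also called lower, with 18.4 and 3.98 in KO cells and 49.2 and 13.5 in WT cells, but its libraries overlapped. Acan, below the minimum, had 0 in KO cells and 19.3 and 17.9 in WT cells, and Matn1 was at 0. The part of the markers of other cell types in the values of the 10 genes was not tested.

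Biglycan and Islr fell in the KO line and fibromodulin rose, each beyond the spread of the libraries. Biglycan, the most abundant member, was 4.43-fold lower, Islr was reduced to 1 read per KO library, and fibromodulin was 8.57-fold higher. Osteomodulin, asporin (Aspn) and osteoglycin (Ogn) had overlapping KO and WT libraries, with WT libraries 3.52-fold to 35.6-fold apart. Decorin, lumican, Prelp and podocan (Podn) had few reads in either line. Summed over the 10 genes, the KO libraries held 8062 and 5557 normalised reads and the WT libraries 20478 and 18563. Without biglycan the sums were 4093 and 2219 in KO cells and 5500 and 1197 in WT cells, and the lines overlapped. In RNA from whole cultures, fewer cells making a message and less message per cell cannot be told apart.

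**Figure D1:**
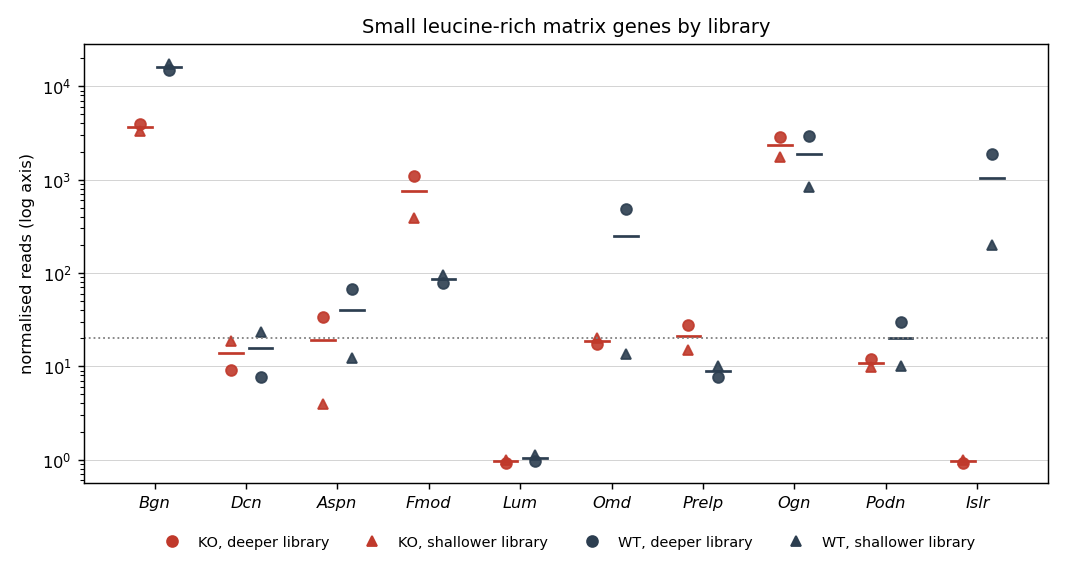
Normalised reads (log axis) of the 10 genes in each library, KO in red to the left of WT in dark blue, circles for the deeper and triangles for the shallower library, bars for the mean of each genotype and a dotted line at the minimum of 20. The KO and WT points of Bgn, Fmod and Islr lie apart, those of Omd and Ogn overlap, and Lum stays at 1 read in every library.

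Genes with at least 20 normalised reads on average were tested. The call was higher in KO from a KO over WT ratio of 2 upwards and lower in KO from 0.5 downwards, provided that the 95% exact (Clopper-Pearson) interval of the ratio did not include 1. These intervals take in counting error alone, because they pool the reads of a genotype and hold no term for the spread between libraries. Reads that carry no molecular identifier are not independent molecules, so even the counting error may be understated. Of the 10 genes, 6 reached the minimum, and 1 of them was called higher (Fmod), 4 were called lower (Bgn, Omd, Aspn and Islr) and Ogn was neither; among all 11710 genes tested, 8.92% were called higher and 8.56% lower. Since a gene that is high in either genotype alone can reach the minimum, the count was also taken without one: Prelp then joined Fmod as higher and the same 4 were lower, beside 8.43% and 9.08% of the 17303 genes with reads. For the authors' adjusted p a threshold of 0.1 was set here, and the authors' deposited table is said to call a gene below it. It called 1 of the 10 lower and 0 higher, against 3.96% lower and 3.91% higher of all genes. At an unadjusted p under 0.05 in that table Bgn and Islr were lower and Fmod higher, beside 7.46% of all genes lower and 6.79% higher. limma over the 4 libraries, an empirical Bayes test on log2(normalised reads + 1), called Fmod higher and Bgn and Islr lower with an adjusted p below 0.05, beside 4.61% and 4.14% of all genes. With 1 labelled sample per genotype, its standard errors (SE) and p-values compare these 4 libraries and are no test of the genotype. The same limit holds for the p-values of the authors' deposited table, whose means come from these libraries. The KO and WT libraries did not overlap for Fmod, higher in KO, and for Bgn and Islr, lower in KO, among the 6, beside 30.4% and 28.8% of all tested genes. Prelp joins Fmod without the minimum, beside 25.6% of genes with reads higher and 26.0% lower. With the depth rank of the libraries as a block, limma called the same 3 members, beside 18.5% of all genes higher and 17.7% lower.

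Because Dicer makes microRNAs, sites for 9 microRNA families of fibroblasts were looked up in the 3' UTR of each gene, taking the longest in the annotation. A site was the 7 bases that pair with seed positions 2 to 8 of the microRNA. The microRNA sequences are from RefSeq on GRCm38.p6, with the seed in capitals, and are shown for the families whose sites fall in genes that were called higher or lower, with or without the minimum.
miR-16-5p: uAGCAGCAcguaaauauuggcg
miR-21a-5p: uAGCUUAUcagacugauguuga
miR-26a-5p: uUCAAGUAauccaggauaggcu
let-7a-5p: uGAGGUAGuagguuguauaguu
miR-29a-3p: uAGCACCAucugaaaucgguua

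The matching sites in the members, with the 7 paired bases in capitals and 8 bases on each side, were read from GENCODE M21 transcripts on GRCm38. Positions count from the first base after the stop codon.
Bgn, miR-15/16 site at 1088 to 1094 of 1137 bases: agagggagTGCTGCTtatgaggt
Islr, miR-15/16 site at 256 to 262 of 668 bases: gtgctagtTGCTGCTaacagcat
Omd, miR-21 site at 139 to 145 of 435 bases: tttacttcATAAGCTtagagctt
Aspn, miR-21 site at 644 to 650 of 934 bases: tcagttatATAAGCTttgaagaa
Aspn, miR-26 site at 49 to 55 of 934 bases: atttggaaTACTTGAactgtcct
Prelp, let-7 site at 972 to 978 of 2302 bases: attagcctCTACCTCtaaggccg
Prelp, miR-29 site at 1792 to 1798 of 2302 bases: aagcaaccTGGTGCTacagcctg

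Bgn and Islr, both lower in KO, shared a miR-15/16 site, which 25.2% of the 11318 tested genes with a 3' UTR also held. Omd and Aspn shared a miR-21 site, held by 905 of those genes. Prelp held sites of let-7 (10.6% of genes) and miR-29 (16.2%), Podn held a miR-17 site (15.0%) and Lum a miR-19 site (13.8%). No site of the 9 families was found in the 1652 bases of Fmod, the 1518 bases of Ogn or the 488 bases of Dcn, and no member held a miR-30 or miR-199a-3p site. A match describes letters in an annotated sequence and says nothing on whether a microRNA acted there; microRNA levels were not analysed here.

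Class I of the family holds biglycan, decorin and asporin. Bgn had 3969 and 3338 normalised reads in the KO libraries, against 14978 and 17366 in the WT libraries. Both KO values lay below both WT values, and the libraries of a genotype differed 1.19-fold in KO and 1.16-fold in WT. The ratio of KO over WT was 0.226 (counting interval 0.220 to 0.232). Between these libraries limma gave Bgn a log2 difference of -2.15 (SE 0.20, adjusted p = 0.0138). It was the only member to pass in the authors' deposited table, at an adjusted p of 2.21e-07. With each library left out in turn it stayed between 4.07-fold and 4.85-fold lower. Biglycan binds TGF-beta and BMP ligands as well as collagen and is needed for normal bone mass in mice.

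Decorin, the closest relative of biglycan and usually a dominant product of fibroblasts in tissue, had few reads in both lines. Dcn had 9.20 and 18.9 normalised reads in KO cells and 7.71 and 23.5 in WT cells, from 29 reads in each genotype. The groups overlapped. The ratio was 0.899, and its counting interval ran from 0.519 to 1.56. Leaving out a WT library gave 1.82 (shallower) and 0.597 (deeper), and leaving out a KO library 1.21 (deeper) and 0.589 (shallower), so that no direction can be given. In each genotype the shallower library had more decorin than the deeper one.

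Asporin, which competes with other members for collagen and binds TGF-beta, had 34.0 and 3.98 normalised reads in KO cells and 67.5 and 12.3 in WT cells. The deeper library was the higher one in both genotypes, 8.55-fold in KO and 5.47-fold in WT, and the groups overlapped. The mean was 2.10-fold lower in KO (ratio 0.476, counting interval 0.319 to 0.702), but the ratio was 1.54 without the deeper WT library, 0.282 without the shallower WT library, 0.0997 when the deeper KO library was dropped and 0.853 when the shallower KO one was left out. Compared between libraries of the same depth rank within their genotype, Aspn was 1.98-fold lower in the deeper and 3.10-fold lower in the shallower pair. limma gave adjusted p = 0.583, and 0.0891 with the depth rank as a block.

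Class II holds fibromodulin, lumican, osteomodulin and Prelp. Fibromodulin, which directs the maturation of collagen fibrils in tendon, had 1106 and 388 normalised reads in KO cells, against 79.0 and 95.3 in WT cells. Both KO libraries exceeded both WT libraries, and the KO libraries themselves differed 2.85-fold. The ratio was 8.57 (counting interval 7.30 to 10.1), and it was 4.45 without the deeper KO library and between 7.84 and 12.7 without each of the others. Between these libraries limma gave Fmod a log2 difference of 2.90 (SE 0.53, adjusted p = 0.0429). The authors' deposited table gave Fmod an adjusted p of 0.231, above the threshold of 0.1 set here. In the pairs of deeper and of shallower libraries Fmod was 14.0-fold and 4.07-fold higher.

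Lumican, a keratan sulfate protein of cornea and skin, had 1 read in each of the 4 libraries, below the floor of 3 reads, and no ratio is given. Prelp, a heparin-binding member of basement membranes and cartilage, had 27.6 and 14.9 normalised reads in KO cells and 7.71 and 10.1 in WT cells. The groups did not overlap. The ratio of 2.39 had a counting interval from 1.34 to 4.45, but with 45 and 17 reads the gene lay below the minimum. The authors' deposited table gave an adjusted p of 0.747, and the ratio was between 1.68 and 3.10 with a library left out. In the GENCODE annotation Prelp shares 350 exonic bases with Gm15851, a gene on the other strand, and the strand setting of the read counter was not given.

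Osteomodulin, a member made by osteoblasts, had 17.5 and 19.9 normalised reads in KO cells and 479 and 13.5 in WT cells. A single library, the deeper WT one, was high, and the shallower WT library lay below both KO libraries. The mean was 13.2-fold lower in KO (ratio 0.0759, counting interval 0.0533 to 0.105), but without the deeper WT library the ratio was 1.39, and without the shallower one 0.0390. limma gave an adjusted p of 0.466, and the value was 0.809 in the authors' deposited table. The osteoblast markers Sp7, a transcription factor, and Alpl, tissue alkaline phosphatase, also stood higher in the deeper WT library: Sp7 had 17.5 and 4.98 normalised reads in KO cells and 1463 and 363 in WT cells, and Alpl 1051 and 519 in KO cells and 21410 and 7662 in WT cells. The other 3 tested markers differed little between the WT libraries: Runx2 had 3451 and 3170 normalised reads there, Phex 34.7 and 33.6 and Dmp1 0.964 and 1.12. Below the minimum, Bglap had 60.7 and 3.36 in WT cells and Ibsp 46.3 and 3.36. Summed over 7 osteoblast markers, of which Alpl was the largest in WT cells, the level was 3221 and 1965 in KO cells and 26467 and 11237 in WT cells. Of the 5 markers tested, Sp7 and Alpl were lower in KO, Phex and Dmp1 were higher and Runx2 was neither. Runx2 had 1991 and 1356 normalised reads in KO cells, both below the WT values, and its ratio of 0.506 just missed the rule. Phex had 64.4 and 75.6 in KO cells. Dmp1 had 92.0 and 6.97 there, 13.2-fold apart. Below the minimum, Bglap had 3.68 and 1.99 in KO cells and Ibsp 0.920 and 0, less than in WT cells. The part of these markers in the values of Omd was not tested.

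**Figure D2:**
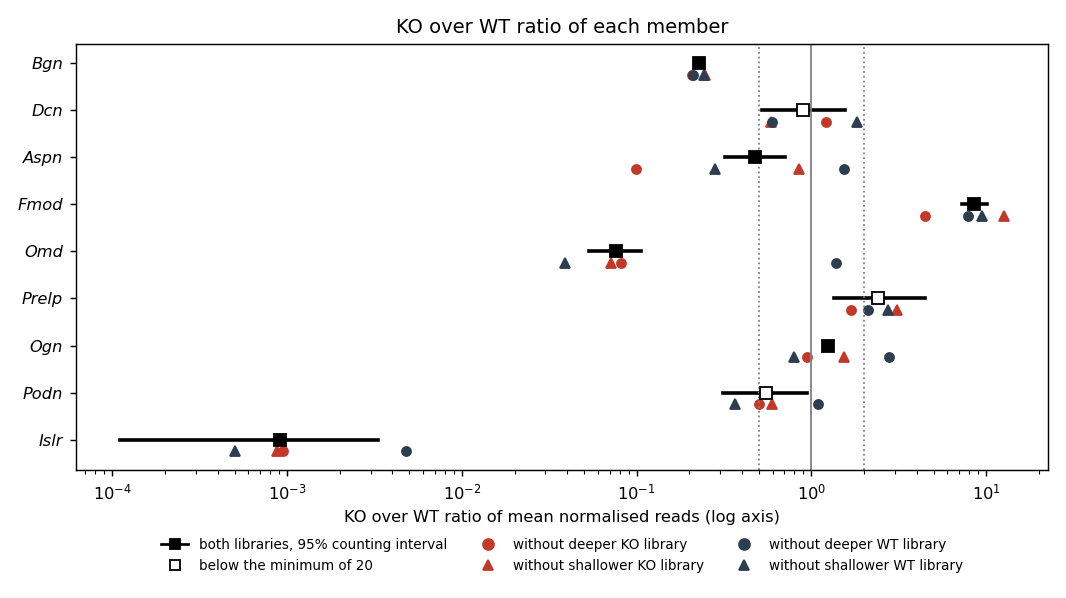
Ratio of KO over WT means (log axis) for the 9 genes with a ratio, as squares with the 95% counting interval (open squares below the minimum of 20), and under each the ratio with 1 library left out, in red for KO and dark blue for WT libraries. Bgn, Fmod, Islr and Prelp keep their side of 1 throughout, while Aspn, Omd, Ogn, Dcn and Podn cross it when 1 of the libraries is left out.

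Class III was represented by osteoglycin, also called mimecan, the second most abundant member per transcript length. Ogn had 2885 and 1761 normalised reads in KO cells and 2925 and 831 in WT cells. The KO values lay inside the range of the WT values, which differed 3.52-fold. The ratio of 1.24 had a counting interval from 1.19 to 1.29, narrower than the spread of the libraries, and the ratio was 2.80 without the deeper WT library, 0.794 without the shallower one and 0.938 without the deeper KO library. limma gave a log2 difference of 0.53 (SE 0.64, adjusted p = 0.638), so that a difference in either direction was not detectable with these libraries.

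Podocan, of class V, had 12.0 and 9.95 normalised reads in KO cells and 29.9 and 10.1 in WT cells. The deeper WT library stood above the other 3, and the counting interval of the ratio, 0.548, ran from 0.313 to 0.938. The gene lay below the minimum, and the ratio was 1.09 without the deeper WT library and 0.367 without the shallower one. Between the deeper libraries it was 0.400, and between the shallower ones 0.986.

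Islr differed more between genotypes than any other member. It had 0.920 and 0.995 normalised reads in KO cells, 1 read in each library, against 1904 and 201 in WT cells. Every WT value was at least 200.7, so the groups did not overlap, although the WT libraries differed 9.49-fold. The ratio of 0.000910 had counting bounds of 0.000110 and 0.00329, equal to a 1099-fold lower level with bounds of 304 and 9080. It was 0.00477 without the deeper WT library and 0.000503 without the shallower one. Between these libraries limma gave Islr a difference of -8.31 on the log2 scale of normalised reads + 1 (SE 1.11, adjusted p = 0.0225); the authors' deposited table, at an adjusted p of 0.114, did not call it. The neighbouring gene Islr2, a leucine-rich protein of nerve cells that shares 181 exonic bases with Islr in the GENCODE annotation, had 0 reads in KO cells and 4 in WT cells.

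Levels were set side by side per kilobase of the longest annotated transcript, on the scale of normalised reads. In KO cells biglycan stood at 1510 per kilobase, osteoglycin at 905, fibromodulin at 239 and osteomodulin at 8.31, and Islr at 0.431. In WT cells biglycan stood at 6685, osteoglycin at 732, Islr at 473, osteomodulin at 109 and fibromodulin at 27.9. Biglycan and osteoglycin thus led in both lines, while Islr held the third place in WT and fibromodulin in KO. On this scale biglycan exceeded 94.7% of tested genes in KO cells and 98.9% in WT cells, and fibromodulin exceeded 58.4% in KO cells and 13.3% in WT cells. Neighbours in the lower part of the order, such as Aspn and Dcn in KO cells (8.16 and 7.99 per kilobase), did not differ beyond the spread of their libraries.

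The family sits in gene clusters. In RefSeq on GRCm38.p6, Ecm2, Aspn, Omd and Ogn follow each other on chromosome 13, Optc, Prelp and Fmod on chromosome 1, and Dcn, Lum, Kera and Epyc on chromosome 10. Every gene of the chromosome 13 cluster was higher in the deeper than in the shallower WT library. Omd differed 35.6-fold there, Aspn 5.47-fold, Ogn 3.52-fold and Ecm2 3.41-fold. Of the 6 members tested, 4 were at least 2-fold apart between the WT libraries (the 3 of this cluster and Islr), all with the deeper library higher, beside 9.05% of all tested genes that far apart and 5.47% with the deeper WT library higher. Between the KO libraries 2 members were so (Fmod and Aspn), again with the deeper one higher, beside 8.80% and 5.67% of genes. Cenpp, a centromere protein gene on the other strand whose span holds the whole cluster, had 177 and 242 normalised reads in KO cells and 309 and 269 in WT cells. Its annotated exons share 7 bases with Aspn and none with Ecm2, Omd or Ogn.

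**Figure D3:**
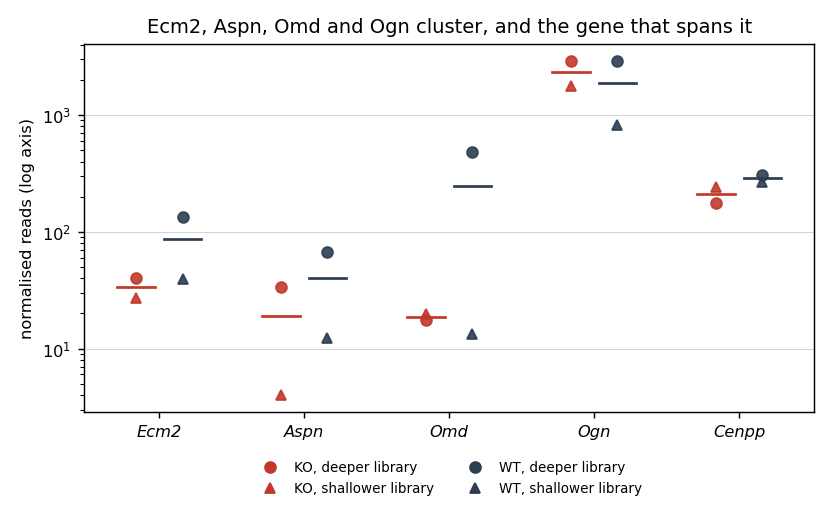
Normalised reads (log axis) of the chromosome 13 cluster genes Ecm2, Aspn, Omd and Ogn and of Cenpp, which spans them, in the KO (red) and WT (dark blue) libraries, circles for the deeper and triangles for the shallower library, bars for the means. The deeper WT library is above the shallower one for all 4 cluster genes, by 35.6-fold for Omd, while the WT values of Cenpp, 309 and 269, lie close together.

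On chromosome 1, Optc, an eye member of class III, had 7.36 and 2.99 normalised reads in KO cells and 13.5 and 16.8 in WT cells. Both Optc and its neighbour Prelp lay below the minimum. The chromosome 10 genes were at the floor or had few reads: Kera and Epyc had 0 reads in every library, where the floor of 3 reads allows between 2.76 and 3.36 normalised reads. Of the other 10 genes of the family, 3 reached the minimum. Of these, 0 were called higher, 1 lower (Ecm2) and 2 neither, beside 8.92% higher and 8.56% lower of all tested genes. Ecm2, a matrix protein with leucine-rich repeats, had 40.5 and 26.9 normalised reads in KO cells and 134 and 39.2 in WT cells, and the groups overlapped. Podnl1, the paralogue of podocan, was the most abundant of these 10, with 1224 and 1023 normalised reads in KO cells and 2514 and 1756 in WT cells. Its ratio of 0.526 missed the 2-fold rule, while the authors' deposited table called it lower at an adjusted p of 0.0998 and limma gave 0.0844. Tsku, a secreted regulator of BMP and Wnt signals, had 320.1 and 374 normalised reads in KO cells and 147 and 205 in WT cells, a ratio of 1.97.

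Genes that act with the family were taken from lists chosen by function. Of 20 tested enzymes of chondroitin and dermatan sulfate chains, 1 was called higher, 4 lower and 15 neither. Among all tested genes 8.92% were called higher and 8.56% lower. The median log2 ratio of the enzymes was -0.09, beside -0.01 over all tested genes. Of the same 20, the authors' deposited table called 1 higher and 3 lower, beside 5.56% and 5.34% of all genes above the minimum. Chst7, below the minimum, was also called lower there. Chsy3, 1 of the 4 called lower by size, reached the minimum through WT cells alone, at means of 0.460 in KO and 41.5 in WT cells. Once admitted in this way, Chsy3 could only be called lower. Chst7 showed the same pattern, at means of 0.995 in KO and 33.8 in WT cells, but was left out. The calls by size in this and the other lists were not recounted without the minimum. Csgalnact1, which starts the chondroitin chain, had 59.8 and 69.7 normalised reads in KO cells and 319 and 303 in WT cells (ratio 0.208; the authors' deposited table has an adjusted p of 2.33e-05). Chsy3, a chondroitin synthase, had 1 read in the deeper KO library, 0 in the shallower, and 33.7 and 49.3 normalised reads in WT cells, a ratio of 0.0111 with a counting interval from 2.77e-04 to 0.0635. Chpf2, a polymerising factor, had 723 and 616 in KO cells and 1623 and 1323 in WT cells, while Chst15, which adds a second sulfate to the chain, had 405 and 220 in KO cells and 73.3 and 37.0 in WT cells, 5.67-fold higher. Among enzymes of the linker, B4galt7, B3gat3 and Xylt2 had ratios of 1.02, 0.927 and 0.964. Xylt1 was called lower, with 49.7 and 23.9 normalised reads in KO cells and 129 and 63.9 in WT cells (ratio 0.381). B3galt6 and Fam20b were neither, at ratios of 0.727 and 1.37. The epimerase gene Dse, which turns chondroitin into dermatan sulfate, had a ratio of 0.885.

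Of 9 tested enzymes of keratan sulfate chains, 2 were called higher, 0 lower and 7 neither, beside 8.92% higher and 8.56% lower of all tested genes. The median log2 ratio was -0.08. The authors' deposited table called 2 higher and 0 lower, beside 5.56% and 5.34% of all genes above the minimum. An unadjusted p under 0.05 in that table also gave 2 and 0, beside 9.46% higher and 9.91% lower. limma called 1 higher and 0 lower, beside 4.61% and 4.14%. Chst1, a sulfotransferase that modifies the galactose of keratan sulfate, had 1522 and 805 normalised reads in KO cells and 98.3 and 34.8 in WT cells. Its ratio was 17.5 (counting interval 14.7 to 21.0), with an adjusted p of 0.0254 by limma and of 0.00111 by the authors' deposited table. B3gnt2, which extends the chain, had 408 and 340 in KO cells and 155 and 195 in WT cells, a ratio of 2.14 that the authors' deposited table gave an adjusted p of 0.0832 and limma 0.0618.

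Of 13 tested collagens that the family binds, 4 were called higher, 5 lower and 4 neither, with a median log2 ratio of -0.45. The shares over all tested genes were 8.92% higher and 8.56% lower. The authors' deposited table called 2 collagens higher and 5 lower, beside 5.56% and 5.34% of all genes above the minimum. The chains of collagen I, the main fibril of bone and tendon, were lower in KO: Col1a1 had 17242 and 18414 normalised reads in KO cells and 36449 and 46028 in WT cells, and Col1a2 had 37204 and 38380 in KO cells and 77804 and 77561 in WT cells. Col6a3, of the beaded filaments that biglycan binds, had 8258 and 9412 in KO cells and 19686 and 18301 in WT cells. Col5a1, which nucleates fibrils, went the other way with 39067 and 37394 in KO cells and 15152 and 19630 in WT cells. Col3a1, the chain of collagen III in skin and vessels and the collagen with the largest ratio of the 13, was named after its values were seen. It had 13669 and 21057 normalised reads in KO cells and 2969 and 3256 in WT cells, a ratio of 5.58 to which the authors' deposited table gave an adjusted p of 3.50e-04 and limma one of 0.0169. None of these groups overlapped, and the authors' deposited table gave adjusted p = 0.0121 for Col1a1, 0.0419 for Col1a2, 0.0248 for Col6a3 and 0.0180 for Col5a1, where limma gave 0.0685, 0.128, 0.0464 and 0.0750.

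Of 9 tested proteases and helpers that process these proteins, 2 were called higher, 3 lower and 4 neither, with a median log2 ratio of 0.23. The shares over all tested genes were 8.92% higher and 8.56% lower. The authors' deposited table called 1 of the 9 higher and 2 lower, beside 5.56% and 5.34% of all genes above the minimum. Bmp1, the protease that removes the biglycan propeptide, had 1310 and 1264 normalised reads in KO cells and 2794 and 2664 in WT cells, a ratio of 0.471 with adjusted p = 0.0361 in the authors' deposited table. Mmp2, a gelatinase, had 233 and 148 in KO cells and 861 and 778 in WT cells. Htra1, a serine protease that cuts biglycan and fibromodulin, had 2429 and 3347 in KO cells and 582 and 302 in WT cells, 6.54-fold higher, and the authors' deposited table gave it an adjusted p of 2.44e-07.

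Of 15 tested receptors and growth factors that bind the family, 3 were called higher, 1 lower and 11 neither, with a median log2 ratio of 0.15. The shares over all tested genes were 8.92% higher and 8.56% lower. The authors' deposited table called 2 higher, the growth factor receptor genes Met and Egfr, to which decorin binds, and 0 lower. The shares of all genes above the minimum there were 5.56% and 5.34%. At an unadjusted p under 0.05 the counts were 4 and 2, beside the same 9.46% and 9.91%. limma called 2 higher and 0 lower, beside 4.61% and 4.14%. Met had 2731 and 2755 normalised reads in KO cells and 451 and 522 in WT cells, and Egfr had 1791 and 924 in KO cells and 227 and 285 in WT cells. The receptors Tlr2 and Tlr4, through which free biglycan signals in macrophages, had 375 and 278 normalised reads in KO cells against 241 and 224 in WT cells for Tlr2, and 516 and 339 against 571 and 274 for Tlr4.

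Among 12 tested proteoglycans outside the family, 3 were called higher, 2 lower and 7 neither, with a median log2 ratio of 0.50. The shares over all tested genes were 8.92% higher and 8.56% lower. The authors' deposited table called 3 higher and 2 lower of the same 12, beside 5.56% and 5.34% of all genes above the minimum. Acan and Gpc2, below the minimum, were also lower there (adjusted p = 0.0145 and 0.0223). Versican (Vcan), a large chondroitin sulfate proteoglycan, had 9347 and 6579 normalised reads in KO cells and 4102 and 1400 in WT cells. Tgfbr3, the TGF-beta co-receptor betaglycan, had 9002 and 5043 in KO cells and 2327 and 955 in WT cells, and Col18a1 had 2292 and 1574 in KO cells and 690 and 434 in WT cells. Sdc3, a syndecan, had 399 and 393 in KO cells and 11763 and 7086 in WT cells, a ratio of 0.0420. The basement membrane proteoglycan gene Hspg2 had a ratio of 1.01.

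**Figure D4:**
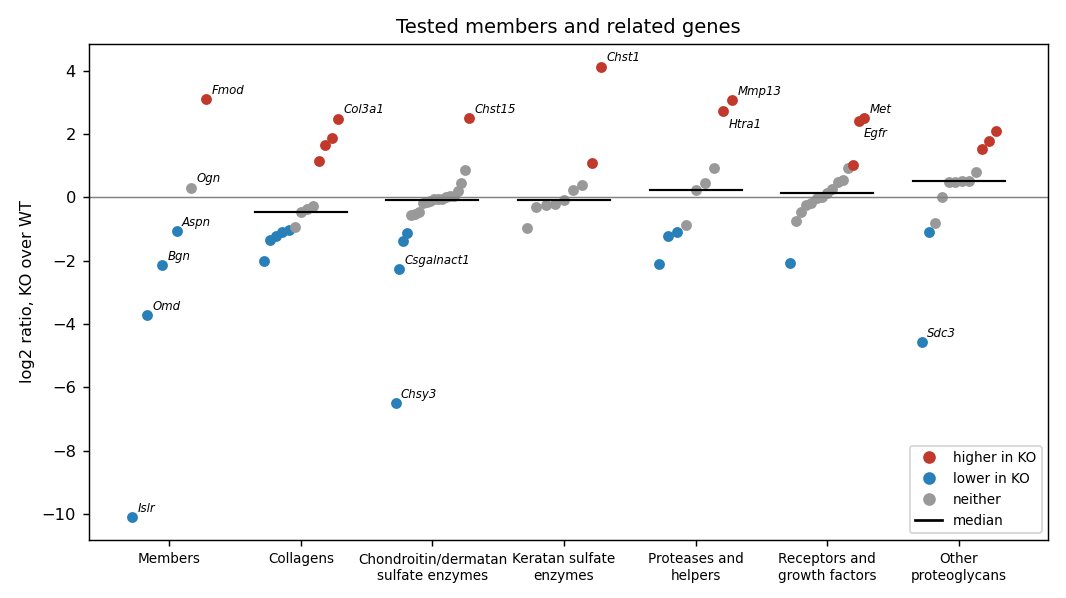
Log2 ratio of KO over WT for the 6 tested members and for tested genes of 6 related lists, each dot a gene, red for called higher, blue for called lower and grey for neither, with a black line at the median of each list. The members run from Islr at -10.10 to Fmod at 3.10. Of the 20 chondroitin and dermatan sulfate enzymes 15 were neither, where 8.92% of all tested genes were called higher and 8.56% lower.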

How the data were processed

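PolyA-selected RNA of 1 KO and 1 WT sample was sequenced as paired reads, per the labels' protocols. TopHat 1.4.0, the build mm9 and DESeq 1.10.1 appear in the submitters' processing notes with no role stated; the read counter, its strand setting and the annotation were not given in the sources used here. The authors deposited 1 table with a signal per gene (the mean of read counts divided by size factors), a fold ratio, its log2 value, and p-values, per the file headers. The comparison's title names WT before KO, so the columns of condition A were taken for WT and those of B for KO, and every direction rests on this. The deposited fold and log2 values matched those recomputed from the means.

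Each genotype mean was a sum of whole multiples of 2 steps. For 100% of genes above 0 exactly 1 pair of whole read numbers gave it, and size factors recomputed from those reads matched the steps. Recovery, intervals and limma were tested on simulated data. The simulated reads for the intervals held counting error alone. Those for limma held a fixed spread between libraries and no effect of depth rank. Neither covers a spread between libraries as wide as that of Omd, Islr or Aspn. Analyses used Python 3.11.15, SciPy 1.17.1 and limma 3.58.1 (trend, log2 of normalised reads + 1, Benjamini-Hochberg over 11710 genes). The 3' UTRs, lengths and gene order came from GRCm38, not the authors' build, so no coordinates are given; 87.4% of symbols matched. Planned protein features and miR-143 sites were not computed. The named genes were all 10 members, cluster neighbours, and of each list up to 4 genes called by size and by the authors' adjusted p, ranked by mean; other genes were added after their values were seen. The genes and lists were chosen with earlier results of these data known. Alternatives tried were another scaling, minimum, fold, pseudocount and threshold, size without an interval, each library left out, pairs of the same depth rank, and limma.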

Additional observations from a re-analysis of the deposited data

How the results depend on the processing

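Among the 6 tested members, 48 ratios were recomputed under another setting: 37 kept direction and call, 3 lost the call, 2 gained one and 6 changed direction. The ratio of Ogn was 0.938 without the deeper KO library, 0.794 without the shallower WT library and 0.987 between the deeper libraries. That of Omd was 1.39 without the deeper WT library and 1.48 between the shallower libraries, and that of Aspn was 1.54 without the deeper WT library. The ratios of Bgn, Fmod and Islr kept their direction and call under every setting in which they were recomputed. With 1 library left out, the ratio of Ogn ran from 0.794 to 2.80, that of Omd from 0.0390 to 1.39 and that of Aspn from 0.0997 to 1.54. In the same setting 1 to 2 members were higher and 2 to 5 lower, and 2 were higher and 2 lower between the shallower libraries. Without a minimum, 2 members were higher and 1571 of all genes lower. A fold threshold of 1.5 gave 2030 genes higher and 2092 lower. limma called 2 members lower, and 540 genes higher and 485 lower; with the depth rank as a block it called 2 members lower, and 2164 and 2077 genes. Scaling by total reads moved the median log2 ratio of tested genes to 0.06, from -0.01. No paired analysis was possible because the labels give no replicate numbers; the depth rank is a pairing read from the data. Of the members below the minimum, with a library left out the ratio of Dcn ran from 0.589 to 1.82 and that of Podn from 0.367 to 1.09. Depth limits Dcn, Lum, Prelp and Podn, which had 45 reads or fewer per genotype. Protein features and miR-143 sites were not run.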
